A study of Homo sapiens with 6 samples.

Results

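Secreted angiogenic factors are made by tumor cells and act largely on blood vessels, so their transcripts were followed in the human ovarian cancer line SK-OV3 after lowering the lncRNA PVT1. The 10 genes described here, chosen by symbol from the 59653 of the count table, are APLN, ADM, VEGFA, VEGFB, VEGFC, PGF, ANGPTL4, ANGPT1, EDN1 and STC2. All 10 passed the filter on low counts. The cells carried a wildtype genotype by their label and were transfected for 48 h with a pool of siRNAs at 50 nM, either against PVT1 (siPVT1) or non-targeting (siControl). Each group holds 3 mRNA libraries with total estimated counts from 28383171 to 35059576, and nothing in the labels says that the replicates came from separate cultures, so p-values measure only the spread between these libraries, which may be technical. A single cell line and a single pool per arm were used, so that effects of lowering PVT1 and other effects of the pool cannot be told apart. These are bulk libraries, in which fewer cells of a kind and less RNA per cell also cannot be told apart.

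Apelin, the product of APLN, signals through the receptor APLNR, and adrenomedullin, the product of ADM, through CALCRL paired with RAMP2 or RAMP3. VEGFA acts on the receptors KDR and FLT1, VEGFB and placental growth factor (PGF) on FLT1, and VEGFC on FLT4 and KDR. Angiopoietin 1 (ANGPT1) activates the receptor TEK on vessel lining cells, ANGPTL4 inhibits lipoprotein lipase, endothelin 1 (EDN1) narrows vessels, and stanniocalcin 2 (STC2) inhibits the protease PAPPA. In ovarian cancer, VEGFA is known for its part in ascites and as the target of bevacizumab.

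Normalized counts of PVT1, the target of the pool, were 3289, 4080 and 3368 in the siControl libraries, listed here and later in the order of replicates 1 to 3, and 2344, 2105 and 2057 in siPVT1. A normalized count is the estimated count divided by the library's TMM size factor. The log2 fold change of siPVT1 over siControl (log2FC) was -0.72 for PVT1, with a standard error (SE) of 0.097 and an edgeR adjusted p of 0.000342, short of the fold threshold used here. In 2 libraries counts of LYZ stood apart. The gene had 246 counts in siControl 2 and 79 in siPVT1 2 against 5 to 19 in the other 4 libraries. Without both libraries, 7 of the 10 ligand genes were past both thresholds as higher and 1 as lower.

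Of the 10 ligand genes, 8 were higher and 1 was lower in siPVT1 past both thresholds, an adjusted p-value under 0.05 (Benjamini-Hochberg) in edgeR's quasi-likelihood test together with a log2FC of 1 or more in size. Of all 19008 genes tested, 11.8% were higher and 9.64% lower by this rule, 21.5% in all. By the adjusted p-value alone the ligand genes gave the same counts, 8 and 1, against 57.9% of all genes, of which 29.5% were higher and 28.4% lower. Values of this comparison were known when the genes were chosen, so they are given here as a description without a test, and nothing is read from the count. The median log2FC of the 10 genes was 1.33, against 0.001 over all genes tested. The siPVT1 libraries all lay above the siControl libraries for 8 genes, all below for 1 and overlapped for 1, while 65.6% of all tested genes had groups that did not overlap, 33.2% all above and 32.3% all below.

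**Figure D1:**
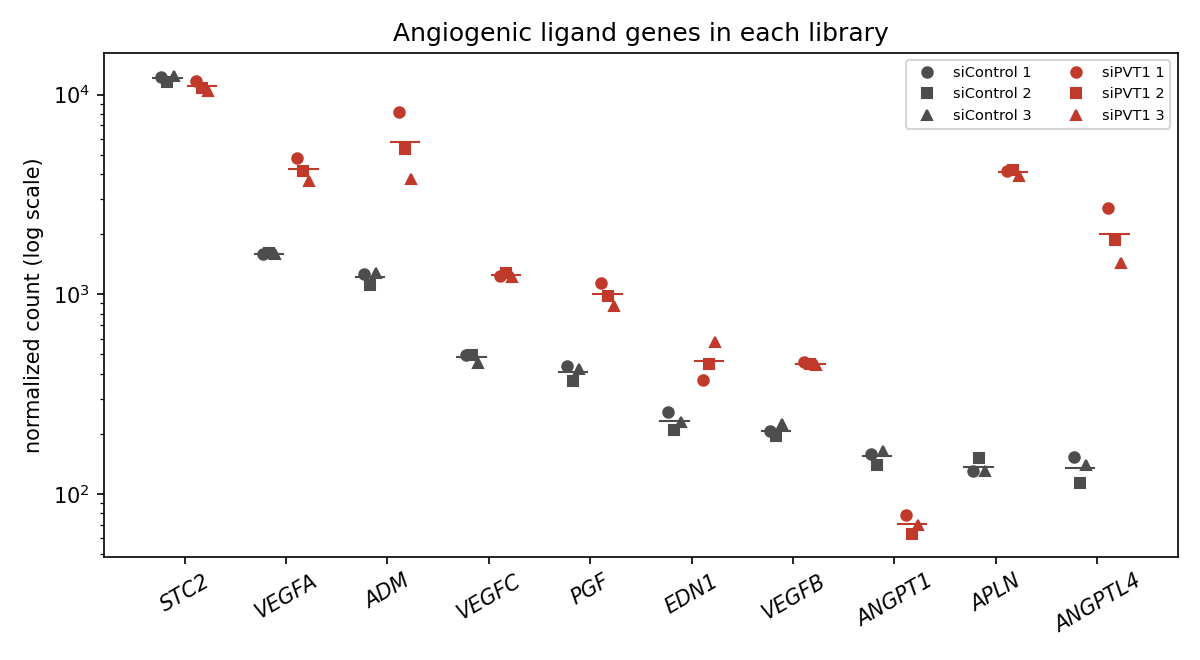
Normalized counts (log scale) of the 10 angiogenic ligand genes in each of 3 siControl and 3 siPVT1 libraries, ordered by the siControl mean; points are libraries and lines are group means. APLN and ANGPTL4 have siControl means of 137 and 135 and siPVT1 means of 4078 and 2007, and the groups of STC2 overlap.

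Among the vasoactive peptides, the largest difference was that of APLN (ENSG00000171388), which lies on the minus strand at chrX:129645259-129654956 in GRCh38 and has 1 annotated transcript of 3 exons. Its normalized counts were 130.1, 151 and 129.9 in the siControl libraries and 4146, 4168 and 3918 in the siPVT1 libraries. The groups lay far apart and the siPVT1 libraries close together, the highest at 1.06 times the lowest. The mean was 137 ± 12.2 in siControl and 4078 ± 138 in siPVT1 (SD, n = 3 per group), a ratio of 29.8 and a log2FC of 4.90 (SE 0.085).

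ADM lies at chr11:10305073-10307397 on the plus strand, with 8 transcripts. Its normalized counts were 1261, 1115 and 1276 in siControl and 8216, 5328 and 3770.1 in siPVT1. The groups did not overlap, but the siPVT1 libraries were far apart, siPVT1 1 holding 2.18 times the value of siPVT1 3. The mean was 1218 ± 88.8 in siControl and 5771 ± 2256 in siPVT1 (SD, n = 3 per group), a log2FC of 2.24 (SE 0.25), and without 1 library at a time it lay between 1.89 and 2.46.

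EDN1 lies at chr6:12290361-12297194 on the plus strand. Its normalized counts were 257, 209 and 228 in siControl and 371, 447 and 579 in siPVT1. Here siPVT1 3 was the highest library and siPVT1 1 the lowest, the reverse of ADM. The log2FC of 1.01 (SE 0.17) sat at the fold threshold and fell to 0.80 without siPVT1 3, to 0.94 without siControl 2, to 0.995 without siControl 3 and to 0.86 with scaling by the total count, each of which ended the call.

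The 4 VEGF family ligands were all higher in siPVT1, with log2FC from 1.11 to 1.40. VEGFA, at chr6:43770184-43786487, had normalized counts of 1594, 1609 and 1588 in siControl and 4815, 4153 and 3705 in siPVT1. Its siControl libraries differed by less than the 2.45% that counting alone would give, with a coefficient of variation of 0.676%, while that of the siPVT1 libraries was 13.2%. The log2FC was 1.40 (SE 0.095). The table sums its 26 annotated transcripts, so the VEGFA isoforms are not told apart.

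VEGFC, a growth factor for lymphatic vessels at chr4:176683538-176792922, had normalized counts of 497, 498 and 453 in siControl and 1241, 1278 and 1218 in siPVT1, a log2FC of 1.37 (SE 0.072). VEGFB, at chr11:64234584-64239264, had 206, 194 and 223 in siControl and 456, 449 and 441 in siPVT1. For both genes the siPVT1 libraries lay closer together than the siControl libraries. The coefficients of variation were 2.43% against 5.26% for VEGFC and 1.68% against 6.89% for VEGFB. Counting alone would give 2.89% against 4.46% for VEGFC and 4.81% against 6.78% for VEGFB, so nothing is read from this difference in spread. The VEGFB log2FC was 1.11 (SE 0.088) and became 0.96, under the fold threshold, with scaling by the total count.
PGF, at chr14:74941834-74955626, had normalized counts of 436, 369 and 421 in siControl and 1141, 984 and 869.7 in siPVT1, a log2FC of 1.29 (SE 0.12). Each of the 3 siPVT1 libraries was above each siControl library for all of VEGFA, VEGFB, VEGFC and PGF. On the plus strand, a lncRNA overlaps VEGFC, and another overlaps VEGFA on the minus strand. These overlaps are between whole gene spans, and shared exons were not checked. The strand setting of the counting is not given in the sources used here, so whether reads of these pairs were mixed is not known.

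The other 3 genes differed in direction and size. ANGPTL4, at chr19:8363289-8374370, had normalized counts of 153, 113 and 139 in siControl and 2718, 1873 and 1431 in siPVT1. It shared with ADM the order of the siPVT1 libraries and a wide spread, 1.90 times from the lowest to the highest. Its log2FC was 3.89 (SE 0.25), the second largest of the 10.

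ANGPT1, at chr8:107249482-107498055, was the 1 gene of the 10 past both thresholds as lower. Its normalized counts were 159, 140.05 and 164 in siControl and 78.9, 63.2 and 70.3 in siPVT1, all below siControl. The log2FC was -1.12 (SE 0.14), and without 1 library at a time it lay between -1.22 and -1.06.

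STC2, at chr5:173314723-173328447 on the minus strand, was the 1 gene whose groups overlapped. Its normalized counts were 12231, 11615 and 12400 in siControl and 11754, 10779.7 and 10458 in siPVT1. The library siPVT1 1 lay above siControl 2, and the log2FC was -0.14 (SE 0.064).

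**Figure D2:**
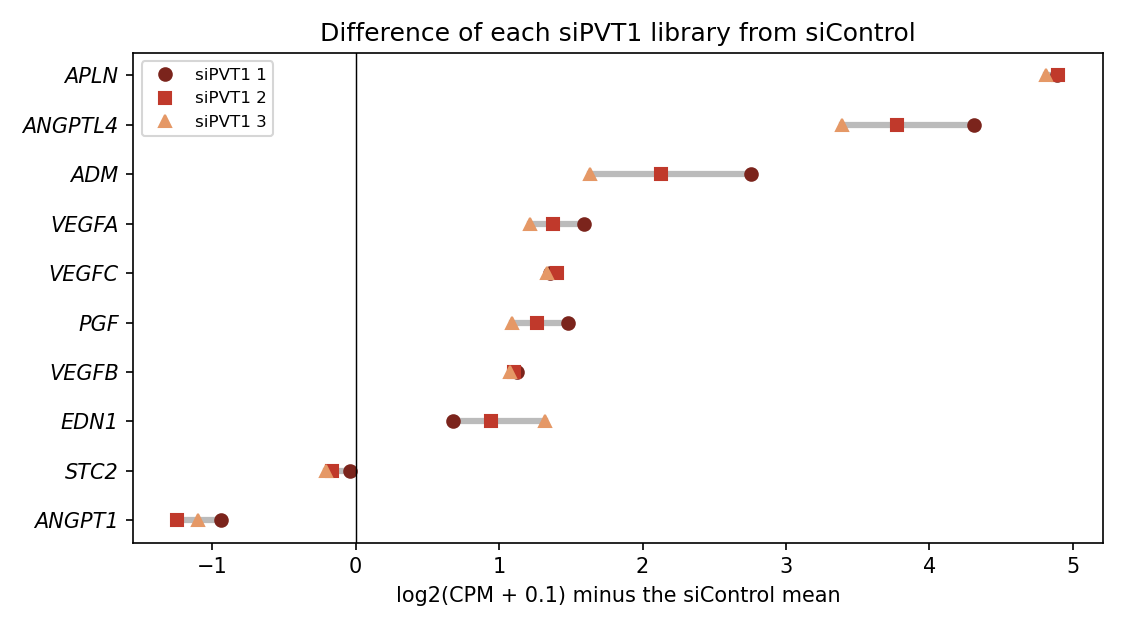
Difference of each siPVT1 library from the siControl mean, on the scale of log2(CPM + 0.1), for the 10 ligand genes; points are libraries and grey bars span the 3. ADM spans 1.63 to 2.75 and ANGPTL4 3.39 to 4.31 with siPVT1 1 highest, EDN1 spans 0.68 to 1.32 with siPVT1 3 highest, and APLN spans 4.81 to 4.90.

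The siPVT1 libraries did not hold the ligand transcripts at one level. For 7 of the 10 genes siPVT1 1 had the highest normalized count of the 3, and for 8 siPVT1 3 had the lowest. Over all tested genes these shares were 38.5% and 39.5%, and over the 2248 genes past both thresholds as higher they were 59.1% and 66.9%. The coefficient of variation was larger in siPVT1 than in siControl for 7 of the 10 genes, and its median over all tested genes was 6.90% in siControl and 12.97% in siPVT1.

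Per length, the order of the ligand transcripts differed between the groups. In siControl the highest level was that of STC2, with 91.5 ± 3.13 RPKM (CPM divided by the kilobases of the canonical transcript; SD, n = 3), followed by ADM with 26.3 ± 1.92 and VEGFA with 14.3 ± 0.096. PGF and VEGFC came next with overlapping libraries at 7.57 ± 0.653 and 6.88 ± 0.362, and then VEGFB and EDN1, also overlapping, at 3.71 ± 0.256 and 3.67 ± 0.389. ANGPTL4 at 2.32 ± 0.350, APLN at 1.37 ± 0.122 and ANGPT1 at 1.17 ± 0.0957 RPKM were lowest.
In siPVT1, ADM had the highest mean, 125 ± 48.7 RPKM, with libraries that overlapped those of STC2 at 83.3 ± 5.11. APLN, 9 in rank in siControl, was at rank 3 with 40.8 ± 1.38, and its libraries overlapped those of VEGFA at 37.7 ± 4.99, which in turn overlapped those of ANGPTL4 at 34.6 ± 11.3. PGF at 18.5 ± 2.52 and VEGFC at 17.8 ± 0.432 overlapped, as did VEGFB at 8.02 ± 0.135 and EDN1 at 7.37 ± 1.67, and ANGPT1 was last at 0.539 ± 0.0597. Summed over VEGFA, VEGFB, VEGFC and PGF, the level was 31.8 to 33.1 RPKM in siControl and 74.4 to 90.0 in siPVT1. The share of VEGFA in this sum was 43.0% to 45.2% in siControl and 44.4% to 47.8% in siPVT1, so the ranges overlapped. These orders and shares depend on the length used: with the union of all exons, siControl VEGFA was at 3.57, PGF at 2.27, ADM at 16.9 and ANGPT1 at 0.697 RPKM, and VEGFA was at rank 5.

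**Figure D3:**
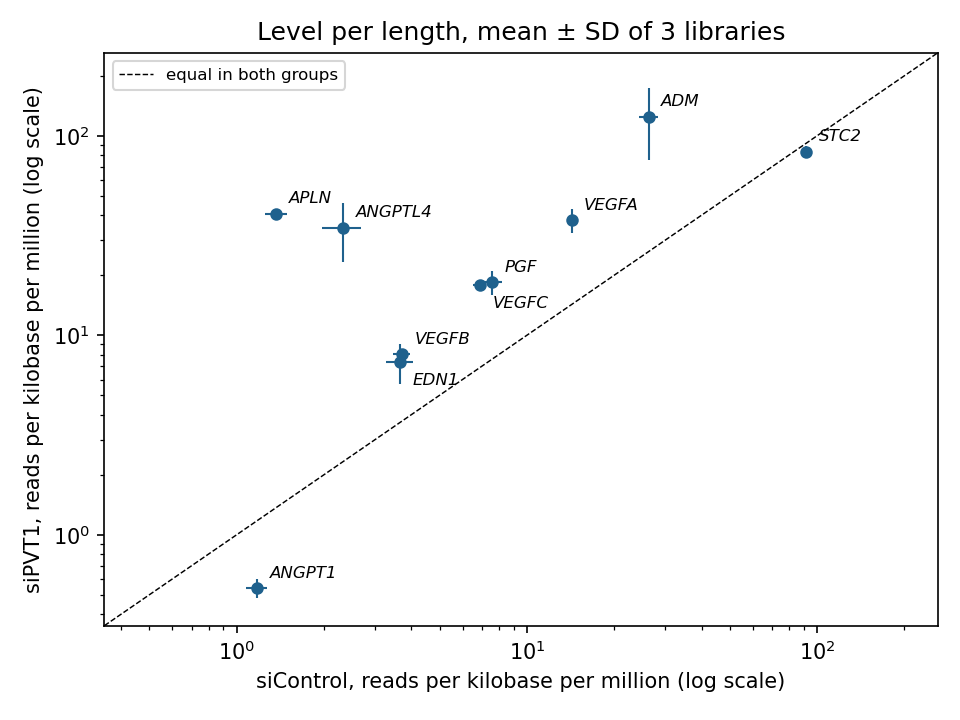
Level per length of the 10 ligand genes in siPVT1 against siControl, in RPKM over the canonical transcript, both axes on a log scale; points are means and bars SD over 3 libraries, and the dashed line marks equal levels. APLN (1.37 and 40.8) and ANGPTL4 (2.32 and 34.6) lie farthest above the line, STC2 (91.5 and 83.3) lies near it and ANGPT1 (1.17 and 0.539) below it.

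The sequence before each start site was not used to choose the genes. RefSeq start sites on GRCh38.p14 were given for 8 of the 10 genes, in 11 windows of 250 bases. VEGFA and ANGPT1 are named only. The core of the hypoxia response element was searched as ACGTG or GCGTG on both strands. It occurred in 9 of the 11 windows, against 43.2% of 35116 windows of the same length in all, which were not matched for base content. Each of the 8 genes had it in at least 1 window. That count has no like share beside it, since EDN1 and PGF have more than 1 window and those of PGF overlap. An AP-1 site (TGANTCA) and an ATF4/CEBP composite site (TGATGNAA), searched on both strands, occurred in 0 of the 11 windows, against 6.57% and 3.14% of all windows. At shares this low, 11 windows are too few to show a lack of either site, so nothing is read from the 0. The windows of the 3 genes with the largest differences are printed next to that of STC2, whose counts overlapped between the groups, 5′ to 3′ on the strand of the gene, with matches to the hypoxia core in capitals. They lie at chrX:129654957-129655206 for APLN, chr19:8363905-8364154 for ANGPTL4, chr11:10304823-10305072 for ADM and, for the outer 200 bases of its window, chr5:173328465-173328664 for STC2.
APLN: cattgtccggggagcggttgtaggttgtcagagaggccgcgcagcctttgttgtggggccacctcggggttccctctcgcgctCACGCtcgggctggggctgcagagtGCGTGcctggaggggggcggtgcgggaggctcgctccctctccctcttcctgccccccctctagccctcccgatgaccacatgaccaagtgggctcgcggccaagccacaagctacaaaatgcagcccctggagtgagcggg
ANGPTL4: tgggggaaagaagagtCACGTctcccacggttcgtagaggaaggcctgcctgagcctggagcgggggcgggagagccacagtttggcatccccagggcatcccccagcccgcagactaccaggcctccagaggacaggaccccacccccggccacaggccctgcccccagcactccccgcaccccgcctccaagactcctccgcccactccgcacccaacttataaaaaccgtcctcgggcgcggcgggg
ADM: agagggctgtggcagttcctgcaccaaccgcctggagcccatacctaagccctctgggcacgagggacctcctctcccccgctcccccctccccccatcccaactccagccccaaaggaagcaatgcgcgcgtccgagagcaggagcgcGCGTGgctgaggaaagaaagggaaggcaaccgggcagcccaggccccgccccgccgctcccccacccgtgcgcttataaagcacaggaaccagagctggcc
STC2: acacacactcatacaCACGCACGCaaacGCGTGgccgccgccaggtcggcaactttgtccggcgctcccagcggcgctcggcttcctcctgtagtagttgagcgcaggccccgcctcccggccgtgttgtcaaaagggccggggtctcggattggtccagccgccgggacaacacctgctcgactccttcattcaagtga
The matches begin 167 and 142 bases before the start of APLN, 234 before that of ANGPTL4, 101 before that of ADM and 235, 231 and 222 before that of STC2. APLN holds 2 matches with a log2FC of 4.90, ANGPTL4 and ADM hold 1 each with 3.89 and 2.24, and STC2 holds 3 with -0.14. The STC2 matches at 235 and 231 overlap. Only the printed genes are set side by side, so nothing is read from the number of matches. A match is a run of letters and not a bound site.

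Genes whose profile over the 6 libraries was most like that of APLN were sought among all tested genes by the root mean square difference of log2(CPM + 0.1), each gene set to its siControl mean. The nearest were CCL3 (0.075), CSF2 (0.38), BDKRB2 (0.41), IFI27 (0.41) and SAP30-DT (0.50). CCL3, a chemokine gene, had normalized counts of 19.9, 21.2 and 21.2 in siControl and 721, 666 and 650.4 in siPVT1. For ADM the nearest were MXI1 (0.078), KRT19 (0.080), HSD17B2 (0.083), THSD4 (0.095) and ADAM8 (0.11). MXI1, which encodes a repressor that pairs with MAX, had 464, 443 and 451 in siControl and 2877, 2151 and 1389 in siPVT1, the same order of siPVT1 libraries as ADM. The 6 points fall into the 2 groups of the comparison, so this likeness is a description of these libraries.

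Receptors, processing enzymes and related peptides of apelin, adrenomedullin and endothelin were compared next, in a list of 22 genes written by hand. Of its 12 tested genes, 2 rose and 1 fell past both thresholds, near the 11.8% and 9.64% of all tested genes, with a median log2FC of 0.038. Which direction held more calls was not stable: 1 rose and 3 fell with scaling by the total count, 2 and 3 with DESeq2, its size factors, the replicate block or TMM after the filter, and without 1 library at a time 1 to 3 rose and 0 to 4 fell. The receptors of the peptides with the largest differences had few counts. APLNR had 4, 2 and 1 counts in siControl and 0, 0 and 3 in siPVT1, RAMP3 had 0 in each library, and RAMP2 had at most 3. The 0 counts of RAMP3 allow at most 3 counts per library, and neither gene nor APLNR was tested. CALCRL had 8, 22 and 13 counts in siControl and 18, 20 and 16 in siPVT1, an overlap with a log2FC of 0.44 (SE 0.41, edgeR adjusted p = 0.383).
EDNRA, the endothelin receptor with more than a few counts, had normalized counts of 394, 334 and 353 in siControl and 248, 217 and 144 in siPVT1. Its log2FC was -0.83 (SE 0.18, edgeR adjusted p = 0.00477), below 1 in size, and it reached -1.02 without siPVT1 1. EDNRB had at most 8 counts in siControl and 1 in siPVT1. MME, which encodes the peptidase neprilysin, rose from 9855 ± 202 to 25807 ± 5258 normalized counts (SD, n = 3 per group), a log2FC of 1.39 (edgeR adjusted p = 5.77e-05). ACKR3, a decoy receptor that can bind adrenomedullin, rose by 1.38 (SE 0.46, edgeR adjusted p = 0.0319) from 7 to 9 counts to 10 to 27, and leaving out siControl 1, 2 or 3 or siPVT1 1 or 2 ended the call, with values from 0.97 to 1.51, as did scaling by the total count (1.23) and leaving out both libraries numbered 2 (1.44). CALCB, which encodes a calcitonin gene-related peptide, had 10, 11 and 14 counts in siControl and 1 in each siPVT1 library. Against a floor of 3 counts per library it was at least 3.56-fold lower, and it passed the filter only through the siControl libraries.
The following 3 genes were chosen after their values were seen, for their place in peptide maturation and family. FURIN, a propeptide convertase, had a log2FC of -0.9997, just short of the threshold, with means of 2518 and 1259 normalized counts. PAM, which amidates adrenomedullin, was at 0.98 with means of 4302 and 8489. ADM2, a relative of ADM, went the opposite way from ADM at -0.9994, with means of 839.6 and 420.4.

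In the VEGF and PDGF list, receptors, co-receptors and related ligands, 9 of 13 tested genes rose and 1 fell past both thresholds, against 11.8% and 9.64% of all tested genes, with a median log2FC of 1.42. The 3 VEGF receptors were higher in each siPVT1 library than in each siControl library. FLT4, the receptor of VEGFC, had 2, 2 and 0 counts in siControl and 43, 33 and 34 in siPVT1, at least 13.4-fold higher against a floor of 3 counts per library. It passed the filter only through the siPVT1 libraries and was not tested without any 1 of them. FLT1 rose from 17.1, 15.1 and 25.8 to 192, 185 and 188 normalized counts, a log2FC of 3.27 (SE 0.19, edgeR adjusted p = 5.52e-06). KDR had 19.9, 38.3 and 27.6 against 48.9, 66.5 and 57.2, a log2FC of 1.01 (SE 0.27, edgeR adjusted p = 0.0122). The KDR call was lost without siControl 1 (0.80), siControl 3 (0.98), siPVT1 2 (0.87) or siPVT1 3 (0.99) and with scaling by the total count (0.85), with DESeq2 (0.99) and with TMM after the filter (0.99).
The co-receptors differed in direction. NRP2, which binds VEGFC, rose from 6997 ± 89.8 to 18781 ± 2838 normalized counts (SD, n = 3 per group), a log2FC of 1.42 (edgeR adjusted p = 1.54e-05). NRP1 went from 7061 ± 64.0 to 6362 ± 227 (SD, n = 3 per group), a log2FC of -0.15 (SE 0.054, edgeR adjusted p = 0.0416) that did not reach 1. Among related ligands PDGFB rose by 2.79 (SE 0.18, edgeR adjusted p = 7.51e-06) and PDGFD changed by -1.14 (SE 0.11, edgeR adjusted p = 7.37e-05). CCBE1 and ADAMTS3, which act together in the cleavage of pro-VEGFC and were named after their values were seen, rose by 1.91 and 1.05.

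**Figure D4:**
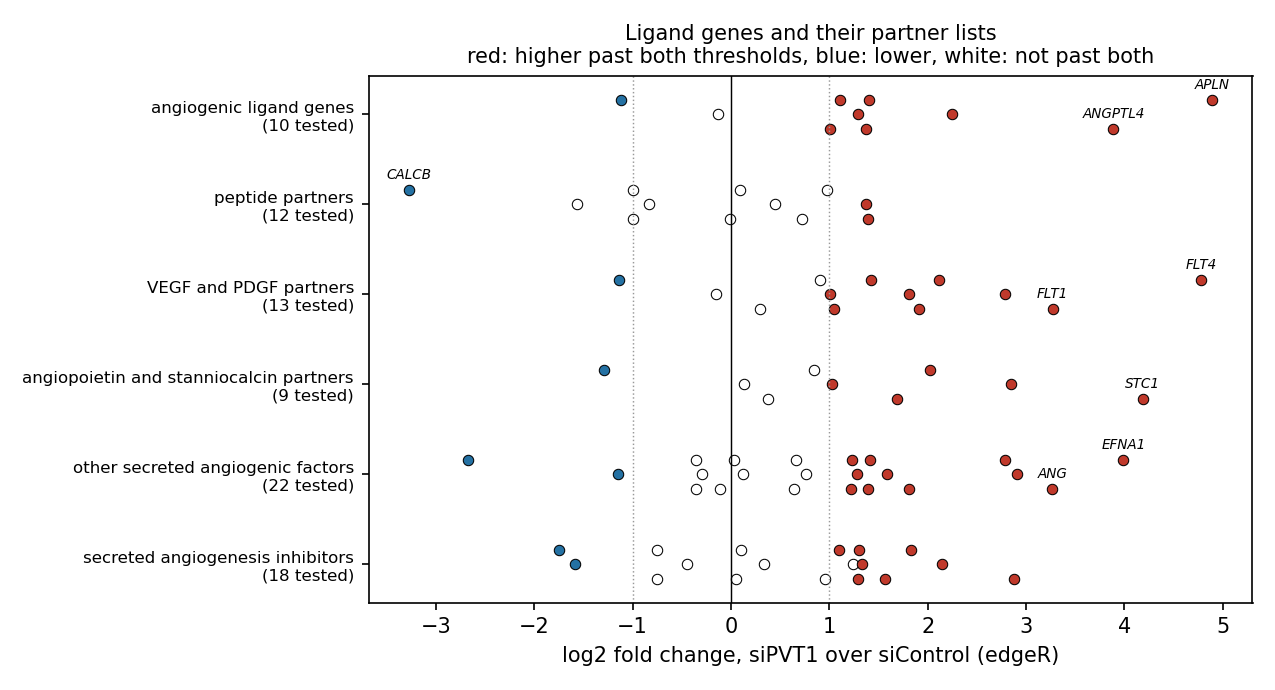
Log2 fold change (siPVT1 over siControl, edgeR) of each tested gene in the 10 ligand genes and in 5 hand-written lists; each point is a gene, red or blue where it passed both thresholds as higher or lower and labelled beyond 3 in size, and dotted lines mark the fold threshold of 1. The 2 points for FLT4 and CALCB are fitted values against a group at or below 3 counts per library. Of the VEGF and PDGF partners 9 were higher and 1 lower, and of the peptide partners 2 and 1, an order that turned with the scaling (1 higher and 3 lower with the total count), against 11.8% higher and 9.64% lower of all tested genes.

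Among relatives of the angiopoietins and of STC2, 5 of 9 tested genes rose and 1 fell past both thresholds, against 11.8% and 9.64% of all tested genes, with a median log2FC of 1.02. The 5 became 2 without siPVT1 1 or siPVT1 2 and 3 without siControl 1. STC1, the paralog of STC2, had normalized counts of 2478, 2456 and 2383 in siControl and 56098, 45830.0 and 31321 in siPVT1. The change, a log2FC of 4.19 (SE 0.20, edgeR adjusted p = 2.32e-06), stands beside -0.14 for STC2. PAPPA, the protease that STC2 inhibits, was at 0.13 (SE 0.093, edgeR adjusted p = 0.272), and its relative PAPPA2 fell by 1.29 (edgeR adjusted p = 0.000169). ANGPTL2 rose by 2.85 (edgeR adjusted p = 4.99e-05). ANGPTL6 had 4, 1 and 3 counts in siControl and 8, 11 and 12 in siPVT1, and passed the filter only through the siPVT1 libraries.
TEK, the receptor of ANGPT1, had 25, 18 and 26 counts in siControl and 33, 24 and 25 in siPVT1, with a log2FC of 0.38 (SE 0.27, edgeR adjusted p = 0.26). TIE1, which pairs with TEK, was at 5901 ± 102 and 10603 ± 763 normalized counts (SD, n = 3 per group), a log2FC of 0.85 (SE 0.066, edgeR adjusted p = 2.04e-05) under the fold threshold.

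In a hand-written list of other angiogenic factors, 11 of 22 tested genes rose and 2 fell past both thresholds. The shares of all tested genes were 11.8% and 9.64%. EFNA1, an ephrin ligand, rose by 3.99 (SE 0.16, edgeR adjusted p = 1.19e-06), ANG, which encodes angiogenin, by 3.27 (SE 0.31, edgeR adjusted p = 5.04e-05) and the cytokine gene IL6 by 2.91 (SE 0.17, edgeR adjusted p = 5.51e-06). SPP1, which encodes osteopontin, fell from 5771 ± 237 to 901 ± 118 normalized counts (SD, n = 3 per group), a log2FC of -2.68 (edgeR adjusted p = 7.92e-07). FGF2, a growth factor for vessel cells, went from 1888 ± 109 to 847 ± 145 (SD, n = 3 per group), a log2FC of -1.15 (edgeR adjusted p = 8.67e-05).
In a hand-written list of inhibitors of angiogenesis, 8 of 18 tested genes were higher and 2 lower past both thresholds. The 2 are near the 9.64% of all tested genes, and the 8 stand against 11.8%. Whether each listed gene acts as a secreted inhibitor was not checked. THBS1, which encodes thrombospondin 1, fell from 26228 ± 306 to 7785 ± 938 normalized counts (SD, n = 3 per group), a log2FC of -1.75 (edgeR adjusted p = 2.70e-06). Its paralog THBS2 rose by 2.88 (SE 0.50, edgeR adjusted p = 0.00146) from at most 15 counts and VASH1 by 1.83 (edgeR adjusted p = 5.45e-05). CXCL10 had 2, 1 and 4 counts in siControl and 9, 5 and 16 in siPVT1, and passed the filter only through the siPVT1 libraries. SERPINB5 fell by 1.58 (edgeR adjusted p = 2.29e-05). The median log2FC was 0.99 in the list of factors and 1.03 in the list of inhibitors.

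Some markers of vessel lining cells were higher in siPVT1, as the ligands were, and others were not, and their part in these results was not tested. Of 12 endothelial markers, 10 were tested and 6 were higher past both thresholds, against 11.8% of all tested genes, and their summed level was 346 to 354 CPM in siControl and 729 to 859 CPM in siPVT1. Much of this sum was held by TIE1, ROBO4 and CDH5, at 194, 84.1 and 64.0 CPM in siControl 1 and 369, 113 and 337 in siPVT1 1. TIE1 and ROBO4 (log2FC 0.39) stayed under the fold threshold, and ERG and TEK had edgeR adjusted p-values of 0.0811 and 0.26. CLDN5 and EMCN had 0 counts in each library, and 3 of the 12, KDR, TEK and TIE1, are receptors described above. Of the epithelial markers EPCAM, CDH1 and MUC1, defining for many carcinomas, MUC1 had at most 9 counts. EPCAM had 68, 126 and 106 counts in siControl and 46, 98 and 44 in siPVT1. CDH1 had 35, 22 and 28 in siControl and 12, 43 and 0 in siPVT1, and MUC16 had 423, 296 and 677 against 179, 581 and 19. Within siPVT1 these genes other than MUC1 were highest in library 2 and lowest in library 3, while KRT7, KRT8, KRT18 and KRT19 were highest in library 1. The cause of this split was not tested. The epithelial keratins KRT8 and KRT18 were at 8552 and 8529 normalized counts in siControl and 10668 and 11011 in siPVT1, while KRT7 went from 7093 to 4996 (log2FC -0.51, edgeR adjusted p = 0.00036). All 13 epithelial carcinoma markers were tested, with KRT19 and MSLN higher and WT1 lower past both thresholds, a median log2FC of -0.43 and a summed level of 874 to 980 CPM in siControl and 1069 to 1189 CPM in siPVT1. The 8 fibroblast markers summed to 6.92 to 7.24 CPM in siControl and 25.7 to 27.0 in siPVT1, with COL3A1 and DCN at no more than 3 counts. Of these 8 fibroblast markers 3 were tested, and 2 were higher past both thresholds, against 11.8% of all tested genes. COL1A1 rose from 113 to 503 normalized counts and PDGFRB from 85.7 to 301. LUM went the other way, from 15.9 to 7.21, and was not called (log2FC -1.15, edgeR adjusted p = 0.132). The 8 leukocyte markers summed to 7.07 to 14.9 CPM in siControl and 1.12 to 3.37 in siPVT1, with CD3E and MS4A1 at 0, and ITGAM fell from 187 to 11.0 normalized counts (log2FC -4.06).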

How the data were processed

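RNA of SK-OV3 cells was sequenced as single-end mRNA libraries, 3 for siControl and 3 for siPVT1. Per the submitters' processing notes and the methods, the authors aligned reads with STAR 2.7.3a to GENCODE v35 (GRCh38.p13), counted with Salmon 0.14.1 and deposited, by gene symbol, estimated counts that are whole and not normalized. All 6 columns were matched to a sample by the label's identifier. Total counts ranged from 28383171 to 35059576.

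From these counts, the 19008 genes that reached 5 normalized counts in 3 or more libraries were tested with edgeR 4.0.16 (R 4.3.3), TMM factors from all genes, the quasi-likelihood test and Benjamini-Hochberg adjustment over all tested genes. Standard errors were derived from the fold changes and the F statistics. The test was run on simulated data first. Members, lists and alternatives were chosen with earlier results of these data known. Named are PVT1, the 10 ligand genes, their receptors, up to 3 called genes with the highest and 3 with the lowest log2 fold change per list, and the 5 genes most like APLN and ADM. Outside this rule FURIN, PAM, ADM2, CCBE1, ADAMTS3, PAPPA, LYZ and the markers printed were named after their values were seen. Gene models and lengths came from GENCODE v44, promoters from RefSeq. No sample was dropped or imputed. Replicates differed by more than counting error, since chi-square divided by its degrees of freedom ran from 1.75 to 45.3. DESeq2 1.42.0 and other settings were tried as alternatives.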

Additional observations from a re-analysis of the deposited data

How the results depend on the processing

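With 3 libraries per group, low counts limit what the receptor genes can show. Scaling by the total count moved the median log2FC over the tested genes from 0.001 to -0.15. The 3 alternatives chosen after seeing the data were TMM factors computed after the filter, both libraries numbered 2 left out, and the union of exons as length.

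A test against a 2-fold change called 1976 genes (1184 higher and 792 lower), and the adjusted p-value alone called 11007 (5612 and 5395). Without both libraries numbered 2, 1221 genes were lower. As lower, the 2-fold test called 0 ligand genes, 0 VEGF and PDGF partners, 0 angiopoietin and stanniocalcin partners and 1 other angiogenic factor. As higher, it called 6 ligand genes, 6 VEGF and PDGF partners and 1 peptide partner. Also higher by it were 2 angiopoietin and stanniocalcin partners, 7 other factors and 4 inhibitors. Scaling by the total count likewise left 6 ligand genes and 6 VEGF and PDGF partners as higher. The adjusted p-value alone gave 4 higher and 4 lower peptide partners, 2 lower VEGF and PDGF partners and 4 lower inhibitors. Of the peptide partners, 1 was higher with the total count, filterByExpr or both libraries numbered 2 left out, and 3 were lower with the total count, DESeq2, its size factors or TMM after the filter, with 0 lower for filterByExpr. Without 1 library at a time they ranged from 1 to 3 higher and 0 to 4 lower. Angiopoietin and stanniocalcin partners ranged from 2 to 5 higher, with 3 under filterByExpr and 3 without both libraries numbered 2. RAMP1, at 0.088, reversed to -0.059 with the total count, -0.019 to 0.20 without 1 library at a time (lowest without siPVT1 3) and -0.036 without both libraries numbered 2.

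Replicate numbers did not pair the libraries: deviations of same-numbered libraries correlated at -0.053, 0.076 and 0.015. With the replicate number as a block, 3924 genes and 8 ligand genes (7 higher and 1 lower) were called, 3 peptide partners were lower, and EDN1 was at 0.99 and lost its call, as it did with DESeq2 and its size factors, TMM after the filter (0.997 each) and both libraries numbered 2 left out (0.97). The cause of these moves was not tested.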
